A study of Mus musculus with 8 samples.

Results

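The ErbB system of the uterine stroma is described here through 10 genes of the 21938 protein-coding genes annotated on the mouse chromosomes: the receptor genes *Egfr*, *Erbb2*, *Erbb3* and *Erbb4*, the ligand genes *Hbegf*, *Areg*, *Ereg*, *Nrg1* and *Tgfa*, and the inhibitor gene *Errfi1*. They were chosen by name, and peaks of PBRM1 and BRG1 were collected within 2000 bp of any annotated transcription start site (TSS) of each gene and along the rest of the gene body. Chromatin immunocleavage sequencing (ChIC-Seq), in which an antibody leads a fused nuclease to the chromatin that carries its antigen so that the fragments cut there can be sequenced, was performed on primary uterine stromal cells of WT mice 8 to 12 weeks of age. Uterine horns (5 to 10 per preparation) were pooled on D4, digested, filtered and plated for some hours, and the labels give 50000 cells per library fixed for 5 minutes. The protocol calls the animals pseudopregnant, whereas the time label of the samples says pregnancy. There were 3 libraries with an antibody against PBRM1 (also called BAF180), a subunit of one form of the SWI/SNF chromatin remodeler, and 3 with an antibody against BRG1, the ATPase of the complex, and neither group carried a mutation or a treatment by its labels. The labels do not say whether the replicates of an antibody came from separate animals or cultures, so the p-values measure only the spread between these libraries. Peaks had been called in each replicate and in the pooled fragments of each antibody, against the local background of the same library and without a control, and 2 IgG libraries were not analysed here.

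The ErbB receptors are transmembrane tyrosine kinases that pair upon binding of ligands with an EGF-like domain. ERBB2 has no known soluble ligand and acts as a partner of the others, and ERBB3 has little kinase activity of its own and signals through its partners. HB-EGF, amphiregulin, epiregulin and TGF-alpha bind EGFR, HB-EGF and epiregulin also bind ERBB4, and neuregulin 1 binds ERBB3 and ERBB4. The ligands are made as membrane precursors that proteases release from the cell surface. ERRFI1 (also called MIG6) binds the kinase domain of activated EGFR and dampens it as a feedback inhibitor. In the mouse uterus, HB-EGF appears where the blastocyst attaches, and amphiregulin is known as a gene of the luminal epithelium that responds to progesterone. A peak marks a place where one of these antibodies recovered more fragments than its surroundings and is not a measure of the expression of the gene.

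The replicate lists rested on 8868777 to 16505239 fragments for PBRM1 and 11506964 to 14595089 fragments for BRG1, and held 21912 to 26363 and 36656 to 40610 peaks. Promoters of marker genes were counted as a check of the labelled cell type, beside the 51.9% of all protein-coding genes that had a promoter peak in all 6 replicate lists and the 61.4% in all 3 BRG1 lists. Of 10 stromal markers, 7 had a promoter peak in all 6 replicate lists and 9 in all 3 BRG1 lists, among them *Vim*, *Pdgfra* and *Hand2*. The stromal markers outside the 7 were *Col3a1*, with no peak in any BRG1 replicate, *Hoxa11*, with none in any PBRM1 replicate, and *Col1a1*, with 1 PBRM1 replicate. Of 10 epithelial markers, 1 (*Krt7*) had a peak in all 6 lists and 5 in all 3 BRG1 lists, including *Cdh1* and *Epcam*. Of 5 endothelial markers, 1 (*Kdr*) had a peak in all 6 lists and 3 (*Kdr*, *Pecam1* and *Tek*) in all 3 BRG1 lists, and of 5 smooth muscle markers, none had one in all 6 lists and 2 (*Myh11* and *Tagln*) in all 3 BRG1 lists. None of 5 immune markers, including *Ptprc* and *Cd68*, had a promoter peak in any replicate list. The part of other cell types in the peaks of the ErbB genes was not tested.

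All 10 ErbB genes had a promoter peak in the pooled PBRM1 list and in the pooled BRG1 list. Of all protein-coding genes, 68.6% had one in the pooled PBRM1 list, 72.1% in the pooled BRG1 list and 67.7% in both. In the separate replicates, PBRM1 was found at the promoters of 9, 6 and 7 of the 10 genes, against 60.0%, 60.7% and 55.3% of all protein-coding genes. BRG1 was found at 10, 9 and 8 of them, against 66.1%, 65.1% and 65.0%. PBRM1 thus held a mean of 7.33 ± 1.53 members per library, BRG1 one of 9 ± 1 (mean ± SD of 3 libraries), with overlapping values (difference −1.67, two-sided exact permutation test, p = 0.3, with 0.1 the smallest p that 3 libraries against 3 allow).

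The genes separated by how many replicates held them. *Egfr*, *Erbb3*, *Hbegf*, *Nrg1* and *Errfi1* had a promoter peak in all 6 lists, which was also true of 51.9% of all protein-coding genes, and the same 5 were those with a peak in all 3 PBRM1 lists (52.2% of all genes). *Erbb2*, *Areg* and *Tgfa* each missed a single PBRM1 library, so that 8 of the 10 genes had a peak in all 3 BRG1 lists, against 61.4%. *Erbb4* and *Ereg* were each found in 2 of the 6 lists. No member lacked a promoter peak in every replicate list, as 29.6% of protein-coding genes did. The shares of the whole genome are printed as context for these counts, and with 10 genes they were not compared by a test. *Nrg1*, with 15 annotated TSSs, offers more windows for a peak than *Areg*, *Ereg* and *Erbb3*, with 1 each.

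**Figure D1:**
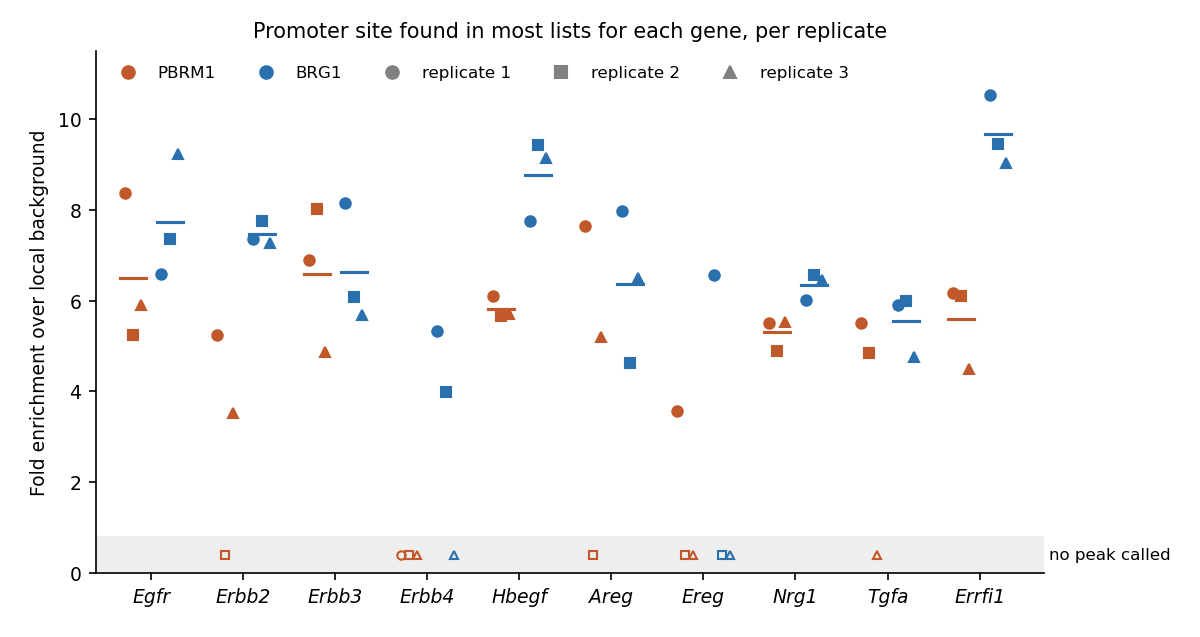
Fold enrichment over the local background (y axis) at the promoter site found in most lists for each of the 10 genes (x axis), for PBRM1 (orange) and BRG1 (blue); symbols are the replicates, bars the mean where all 3 replicates of an antibody had a peak, and open symbols in the grey band mark libraries with no peak called. Of the 5 genes with a value in all 6 lists, *Errfi1*, *Hbegf* and *Nrg1* have every BRG1 replicate above every PBRM1 replicate, and *Erbb4* has no PBRM1 symbol above the band. The values are unscaled, and at the sites with a peak in all 6 lists the BRG1 lists had higher medians than the PBRM1 lists.

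*Egfr*, whose product is the receptor of most of these ligands, carried a broad promoter site over its 5′ starts at chr11:16751916-16753113 (mm10). The fold enrichment of PBRM1 there was 8.36, 5.25 and 5.91 in replicates 1, 2 and 3, and that of BRG1 was 6.59, 7.35 and 9.22. The values of the antibodies overlapped. A second *Egfr* site inside the promoter window, chr11:16753298-16753522, had a peak in 1 PBRM1 replicate (4.20) and in no BRG1 replicate.

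The promoter site of *Erbb2*, the partner receptor, lay at chr11:98412260-98413378. PBRM1 was at 5.25 and 3.52 in replicates 1 and 3 and had no peak in replicate 2, whereas BRG1 was at 7.35, 7.76 and 7.26. The BRG1 replicates spread little (7.45 ± 0.27, SD, n = 3) and all were above both PBRM1 values on this unscaled measure. A weak site near an internal start, chr11:98428117-98428276, was called in the pooled BRG1 list alone (3.29).

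*Erbb3*, the kinase-impaired receptor, had a single TSS and a single promoter site at chr10:128589237-128590605. Fold enrichment was 6.89, 8.01 and 4.86 for PBRM1 and 8.15, 6.07 and 5.68 for BRG1, with means of 6.59 ± 1.60 and 6.63 ± 1.33 (SD, n = 3 each). The antibodies overlapped throughout, and all 6 summits lay upstream of the TSS, at −821 to −184 bp.

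*Erbb4*, the receptor of neuregulins and HB-EGF, was held by the fewest lists among the receptors. Its site at the 5′ end, chr1:69106967-69108025, had BRG1 peaks of 5.33 and 4.00 in replicates 1 and 2 and no peak in replicate 3 or in any PBRM1 replicate. The site next to it, chr1:69106052-69106808, had a BRG1 peak in replicate 1 alone (5.69). The pooled PBRM1 fragments gave peaks of 4.11 and 3.33 at these sites, although no PBRM1 replicate had one. The start of a noncoding transcript inside the gene, Gm16076, lies within 2000 bp of both sites, and the peaks of the genes cannot be told apart.

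Of *Hbegf* and *Nrg1*, the ligand genes with a peak in all 3 PBRM1 lists, *Hbegf* had the more even unscaled PBRM1 values. At its promoter site (chr18:36515177-36516232) PBRM1 was at 6.09, 5.65 and 5.70, a mean of 5.82 ± 0.24, and BRG1 was at 7.75, 9.43 and 9.13, a mean of 8.77 ± 0.89 (SD, n = 3 each). Every BRG1 value was above every PBRM1 value before the lists were put on a common scale. A further site in the promoter window, chr18:36514029-36514355, was called in the pooled BRG1 list alone (2.61).

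*Areg*, the amphiregulin gene, had 1 promoter site, chr5:91139364-91139925. PBRM1 was at 7.63 and 5.20 in replicates 1 and 3, with no peak in replicate 2, and BRG1 was at 7.97, 4.62 and 6.49. The values of the antibodies overlapped. All 5 summits fell within −9 to 146 bp of the TSS, where negative values are upstream.

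*Ereg*, the epiregulin gene, lies beside *Areg* on chromosome 5 and had a much weaker record. Its promoter site, chr5:91074448-91074865, had a PBRM1 peak of 3.56 and a BRG1 peak of 6.56, in replicate 1 of each antibody and in no other library. The PBRM1 peak ranked at percentile 1.73 of its list by q-value, close to the limit of calling, and the BRG1 peak at percentile 53.4. The antisense transcript Gm19610 starts within the same window, and the peaks cannot be told apart between the genes.

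*Tgfa*, the TGF-alpha gene, had its main promoter site at chr6:86194906-86195964. PBRM1 was at 5.51 and 4.85 in replicates 1 and 2, with no peak in replicate 3, and BRG1 was at 5.90, 6.00 and 4.76, so the antibodies overlapped. Another 3 sites within its promoter windows (chr6:86196164-86196407, chr6:86209556-86210040 and chr6:86210829-86211161) were called in the pooled BRG1 list alone, at 2.34, 2.85 and 4.46.

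*Nrg1*, the neuregulin gene, spans 1069 kb with its starts grouped at several places, and the lists held 6 promoter sites. The site found in all 6 lists, chr8:32008413-32009800, lies over a group of internal starts. PBRM1 was at 5.50, 4.89 and 5.52 there and BRG1 at 6.01, 6.57 and 6.44. All BRG1 values were above all PBRM1 values on this unscaled measure, and the lincRNA Gm26578 starts in the same window on the opposite strand.

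The remaining *Nrg1* promoters were held by fewer lists. At another group of internal starts, chr8:31918487-31918883 had BRG1 peaks of 5.25, 6.19 and 6.50 and a PBRM1 peak in replicate 1 alone (4.39), and chr8:31918002-31918177 had a PBRM1 peak in replicate 1 alone (4.34). At the 5′ end of the gene, chr8:32884496-32885042 had BRG1 peaks of 4.98, 4.99 and 5.03 and a PBRM1 peak in replicate 1 (3.97), and chr8:32883390-32883971 had PBRM1 in replicate 1 (4.87) and BRG1 in replicates 1 and 2 (5.10 and 4.69). The PBRM1 replicate with the fewest fragments, replicate 1, was thus the PBRM1 library that held each of these sites, and it also had the highest median fold enrichment of its peaks (5.80, against 5.15 and 4.75 in replicates 2 and 3). A site at the most 3′ start, chr8:31847770-31848025, was called in the pooled BRG1 list alone (3.57).

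*Errfi1*, the inhibitor of EGFR, had the highest mean BRG1 fold enrichment among the main promoter sites of the 10 genes. At chr4:150854704-150855424, PBRM1 was at 6.16, 6.11 and 4.50 and BRG1 at 10.5, 9.43 and 9.02, with means of 5.59 ± 0.94 and 9.66 ± 0.78 (SD, n = 3 each). Every BRG1 replicate was above every PBRM1 replicate on this unscaled measure. The BRG1 peaks ranked at percentiles 91.9 to 97.4 of their lists by q-value, against 64.0 to 75.6 for PBRM1. The BRG1 lists held more peaks, so these percentiles are not on one scale. The site did not lie at the annotated 5′ end of the gene but 1154 bp further in, at the start of a shorter coding transcript, where the 6 summits fell at −149 to 28 bp. At the 5′ end itself only the pooled BRG1 list had a peak, chr4:150854059-150854388, at 2.23. The noncoding gene 1700045H11Rik starts on the opposite strand within the same window.

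By mean BRG1 fold enrichment at these sites, the 8 genes held by all 3 BRG1 lists ran from *Errfi1* (9.66) through *Hbegf* (8.77), *Egfr* (7.72 ± 1.36), *Erbb2* (7.45), *Erbb3* (6.63), *Areg* (6.36 ± 1.68) and *Nrg1* (6.34 ± 0.29) to *Tgfa* (5.55 ± 0.69, SD, n = 3 each). Neighbours in this order overlapped in their replicate values, except *Nrg1* and *Tgfa*, whose nearest values were 6.01 and 6.00. The plot of promoter fold enrichment by gene shows the same order with every replicate.

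The sequences before the starts of 4 of these genes are shown because TATAAA precedes the starts of the neighbouring ligand genes *Areg* and *Ereg* and the internal start of *Errfi1* where its peaks lie, and *Erbb4* is given as a gene held by as few lists as *Ereg*. The internal starts of the other members were not searched in this way. Each is the 150 bases that end next to the start, read 5′ to 3′ on the strand of the gene from the GRCm38 assembly, with capitals for a TATA box (TATAAA) or a GC box (GGGCGG or its reverse complement CCGCCC). The *Errfi1* run holds overlapping GC boxes, and the *Erbb4* run holds neither motif.
*Areg*, chr5:91139449-91139598, plus strand: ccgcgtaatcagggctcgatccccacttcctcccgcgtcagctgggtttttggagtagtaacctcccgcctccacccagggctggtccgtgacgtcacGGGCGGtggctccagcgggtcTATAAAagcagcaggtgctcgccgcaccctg
*Ereg*, chr5:91074472-91074621, plus strand: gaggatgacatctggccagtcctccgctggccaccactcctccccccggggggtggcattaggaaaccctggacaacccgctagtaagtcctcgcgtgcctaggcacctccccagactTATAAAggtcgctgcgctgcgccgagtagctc
*Errfi1* internal start, chr4:150854923-150855072, plus strand: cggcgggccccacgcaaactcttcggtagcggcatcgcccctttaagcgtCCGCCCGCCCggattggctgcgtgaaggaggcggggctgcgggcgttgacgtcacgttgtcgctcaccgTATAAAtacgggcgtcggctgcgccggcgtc
*Erbb4*, chr1:69108060-69108209, minus strand: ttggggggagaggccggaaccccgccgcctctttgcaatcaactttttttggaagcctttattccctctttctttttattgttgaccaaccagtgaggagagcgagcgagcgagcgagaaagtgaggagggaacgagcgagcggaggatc

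The motif TATAAA begins 31 bases before the start of *Areg*, 32 bases before that of *Ereg* and 31 bases before the internal start of *Errfi1*. In the 50 bases before the most 5′ coding start, the motif was present on the strand of the gene in 2 of the 10 members, *Areg* and *Ereg*, and in 3.24% of 21932 protein-coding genes. Among the 711 genes with it, 18.1% had a promoter peak in all 6 lists, against 53.0% of the genes without it. These shares were not split by the CpG content described next, with which the share also changed, and a link to TATAAA was not tested. The window of *Errfi1* overlaps an exon of 1700045H11Rik on the other strand, and none of the 4 windows overlaps an exon of its own gene. A match of letters is a description and does not show that a factor binds there.

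The number of lists with a promoter peak was set beside the CpG content of the promoter, taken as the observed over expected CpG in 501 bp around the most 5′ coding start. Across 21932 protein-coding genes, the share with a promoter peak in all 6 lists was 8.26% below a ratio of 0.2 and 85.8% between 0.8 and 1.0. *Erbb4* (0.89) and *Areg* (0.88) had ratios as high as *Tgfa* (0.85), *Nrg1* (0.84) and *Hbegf* (0.81), and still *Erbb4* was held by 2 lists, whereas genes of this bin were held by 5.65 lists on average. *Ereg* had a ratio of 0.54 and was held by 2 lists, in a bin with a mean of 3.99, and *Erbb3*, in the same bin at 0.57, was held by 6. *Errfi1* was at 0.30 at its 5′ end, in a bin with a mean of 1.96 lists, but at 1.16 at the internal start, which is above 99.7% of the promoters measured. *Egfr* (0.74) and *Erbb2* (0.68) fell between. The count of lists is over all starts of a gene, so that *Nrg1* counts 6 lists through its internal starts although the most widely held site at its 5′ end was held by 4. These values are a description across genes, which are not independent replicates.

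**Figure D2:**
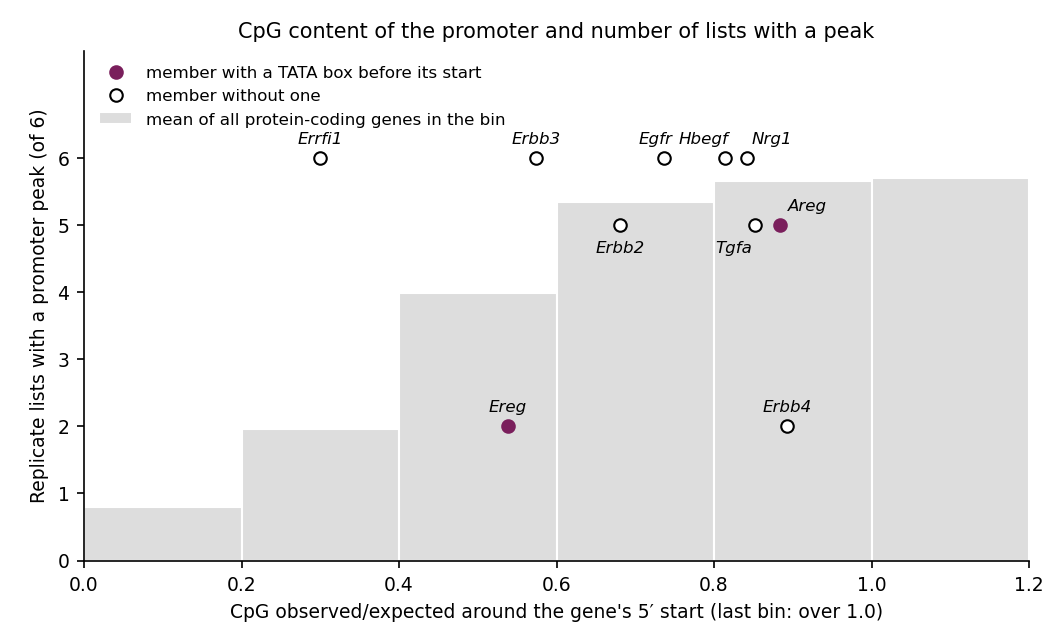
Number of the 6 replicate lists with a promoter peak (y axis) against the CpG observed over expected ratio around the most 5′ coding start (x axis) for the 10 genes (circles, filled where TATAAA lies in the 50 bases before that start); grey bars give the mean number of lists over all protein-coding genes in each bin. *Erbb4* and *Ereg*, at 2 lists, lie furthest below the bar of their bin, and *Errfi1* lies far above it, where *Errfi1* and *Nrg1* are plotted by their 5′ ends although the peaks in all 6 lists lie at internal starts.

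Outside the promoters the members differed in another order. The pooled lists held 22 PBRM1 and 38 BRG1 peaks in the 10 gene bodies, of which *Egfr* had 5 and 13, *Tgfa* 7 and 9 and *Nrg1* 7 and 12. *Erbb2* had 1 and 2, *Erbb3* and *Hbegf* had 1 of each antibody, and *Areg*, *Ereg* and *Errfi1*, all short genes, had none. *Erbb4* had none either, although it spans 1076 kb. No pooled gene-body peak of either antibody was also the case for 14.3% of the 230 protein-coding genes of at least 500 kb, whose medians were 3 PBRM1 and 5 BRG1 peaks. A single BRG1 peak in replicate 3 was called within *Erbb4*.

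In the replicate lists the members' gene bodies held 3, 6 and 3 PBRM1 peaks and 10, 15 and 15 BRG1 peaks. All BRG1 replicates were above all PBRM1 replicates, with a difference in means of −9.33 peaks (4 ± 1.73 against 13.3 ± 2.89, SD, n = 3 each), for which an exact permutation test, two-sided, gave its lowest attainable p of 0.1. The bodies of all protein-coding genes held 4396 to 5938 PBRM1 peaks and 9722 to 11512 BRG1 peaks, so the antibodies stood in the same order over the genome. Per 100 kb the members held 0.12 to 0.24 PBRM1 and 0.40 to 0.60 BRG1 peaks, all genes 0.41 to 0.55 and 0.91 to 1.07, and the 230 genes of at least 500 kb 0.22 to 0.30 and 0.51 to 0.58. With the 2 genes over 1000 kb left out, a choice made after the values were seen, the other 8 members held 2, 5 and 2 PBRM1 and 8, 9 and 12 BRG1 peaks, or 0.58 to 1.44 and 2.3 to 3.45 per 100 kb. The members' rate was thus below that of all genes in each list with these 2 genes and above it in each list without them. Long genes, whose rate was lower, stayed in the rate of all genes, which was not computed without them. Being above it is thus not shown to be a trait of the members. When only peaks with a −log10 q-value of at least 5 were counted, the difference shrank to −2.33 peaks and the libraries were no longer separated (exact permutation test, p = 0.2).

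**Figure D3:**
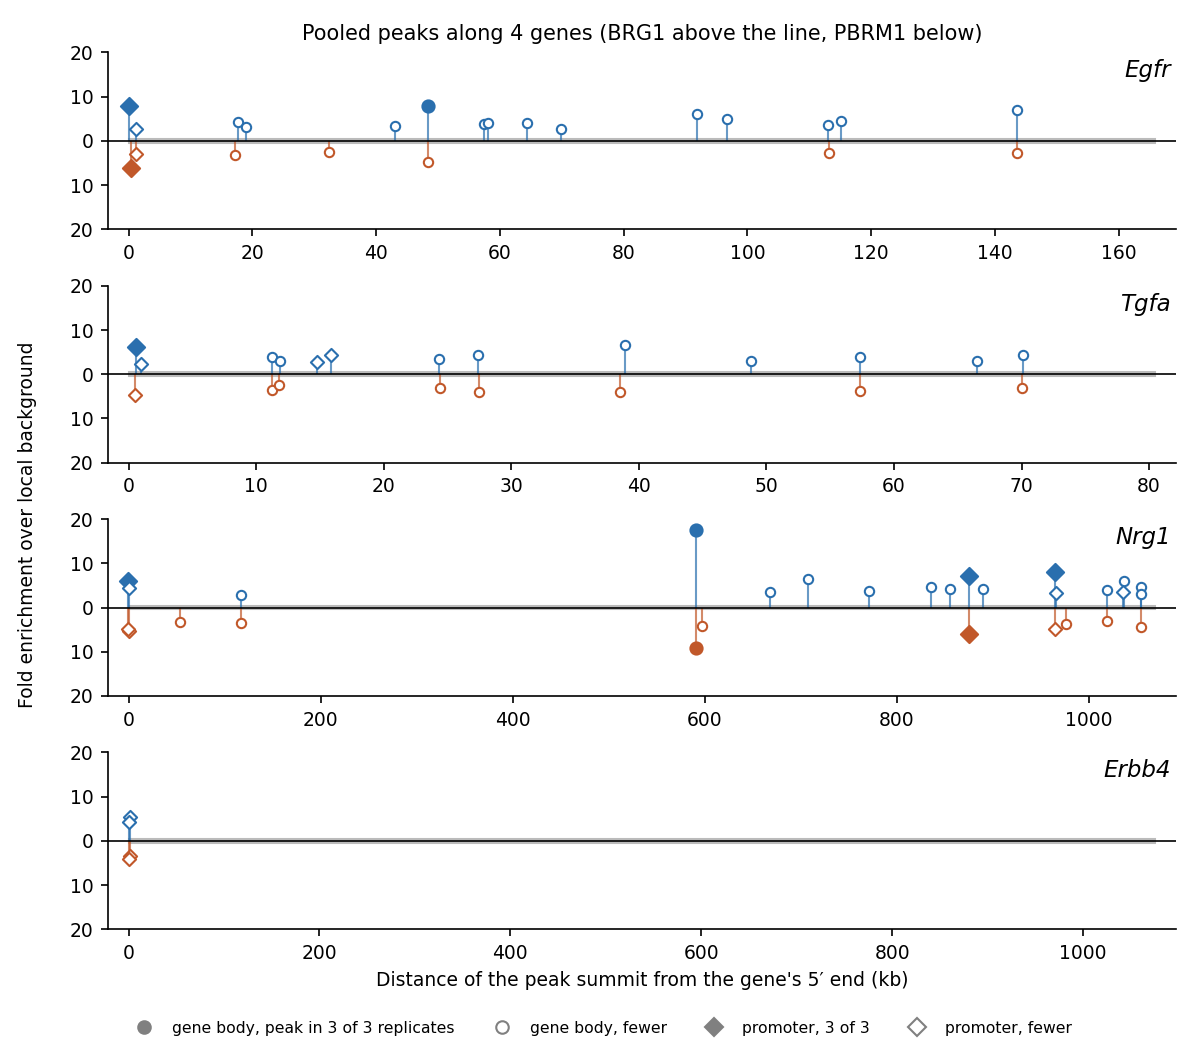
Pooled peaks along *Egfr*, *Tgfa*, *Nrg1* and *Erbb4* by distance of the summit from the 5′ end of the gene in kb (x axis) and fold enrichment (y axis), BRG1 upward in blue and PBRM1 downward in orange; diamonds are promoter sites, circles gene-body sites, filled where all 3 replicates of the antibody had a peak. The intronic site of *Nrg1* at 591 kb is the tallest mark, at 17.6 for BRG1 and 9.08 for PBRM1, and *Erbb4* is empty beyond its 5′ end.

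Of 44 gene-body sites, 21 had a peak in no replicate list, 2 had one in all 3 BRG1 lists and 1 had one in all 6 lists. Genome-wide, 2029 of the 62039 sites outside all promoter windows had a peak in all 6 lists. Of 62037 such sites without unread bases, 6458 had one in all 3 BRG1 lists. These include sites between genes, and the counts were not compared by a test. The member site in all 6 lists lies in an intron of *Nrg1* about 591 kb from the 5′ end of the gene. PBRM1 was at 8.71, 7.79 and 5.69 there and BRG1 at 15.2, 14.3 and 12.4, with means of 7.40 ± 1.55 and 13.96 ± 1.41 (SD, n = 3 each), so the unscaled values of the antibodies did not overlap. These were higher than the values at the *Nrg1* promoters in every library. The 3 summits of each antibody fell within 30 bp for PBRM1 and 27 bp for BRG1, where those at the member promoters held by all 6 lists spread over 51 to 605 bp and 113 to 1130 bp, in sites of 721 to 1388 bp against 366 bp for the intron. Close summits were not particular to the intron, since the BRG1 summits at the *Nrg1* promoter site chr8:31918487-31918883 (397 bp) fell within 20 bp. At the other member sites held by all 3 BRG1 lists but not all 6, they spread over 52 to 562 bp. The site overlapped no exon of *Nrg1* and lay outside the promoter windows of all annotated genes.

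The other recurrent gene-body site lies in an intron of *Egfr* at chr11:16800327-16800835, 48.4 kb from the 5′ end. BRG1 was at 6.01, 5.75 and 7.39, a mean of 6.39 ± 0.88 (SD, n = 3), and PBRM1 had a peak in replicate 2 alone, at 4.84. The pooled values of the antibodies were 7.92 and 4.78. The remaining *Egfr* sites were held by at most 3 replicate lists and ranged from 2.74 to 6.91 in the pooled BRG1 list. None of the 9 *Tgfa* gene-body sites was held by all 3 replicates of an antibody, and their pooled BRG1 values ran from 2.94 to 6.68.

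The intronic site of *Egfr* is shown as a gene-body site that every BRG1 replicate held. It is given as 300 bases centred on the pooled BRG1 summit, read 5′ to 3′ on the strand of the gene from the GRCm38 assembly, all in lower case because none of the motifs searched occurs in it.
*Egfr* intron, chr11:16800499-16800798, plus strand: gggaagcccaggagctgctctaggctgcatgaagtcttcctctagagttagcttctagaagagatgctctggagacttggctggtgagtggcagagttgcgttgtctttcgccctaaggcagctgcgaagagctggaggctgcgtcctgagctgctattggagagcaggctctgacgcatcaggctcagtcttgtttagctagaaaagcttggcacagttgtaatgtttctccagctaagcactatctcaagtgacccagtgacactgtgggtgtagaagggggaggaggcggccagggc

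The *Egfr* stretch had 54.7% G and C. Over all sites outside promoters the median was 51.5% in windows of 301 bp around the summit, and 54.8% over those held, like this one, by all 3 BRG1 lists. In windows of that size, 5 short motifs were counted on both strands at the members' 23 promoter and 44 gene-body sites. The GC box was present at 9 promoter sites and 1 gene-body site, against 44.7% of promoter sites and 12.0% of other sites genome-wide. The AP-1 motif (TGANTCA) was present at 1 promoter site, in *Nrg1*, and at 9 gene-body sites, 4 of them among the 23 with a peak in a replicate list, against 7.56% and 14.3%. TATAAA was present at 3 and 4 of them (5.94% and 11.7% genome-wide) and the E-box CACGTG at 1 and 3 (8.46% and 6.73%). The full hormone response element, AGAACA and TGTTCT separated by 3 bases, was at none of them and at 0.0075% of all sites, so that its absence says little in so few windows.

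Whether the antibodies differed in their relative strength was asked at the sites with a peak in all 6 lists, where each list has a value. The log2 fold enrichment was centred on the median of each list, because PBRM1 lists had medians of 7.39, 6.77 and 5.54 at these sites and BRG1 lists 8.30, 8.27 and 8.37. The limma test with Benjamini-Hochberg adjustment found 657 of 13071 sites (5.03%) to differ, with 375 relatively higher for PBRM1 (2.87%) and 282 for BRG1 (2.16%). This split depends on the scaling, since quantile normalization gave 214 and 273 sites, and the pileup scaled to the number of fragments 525 and 696. Of the 6 member sites in this test, 1 was called, in the direction of BRG1.

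That site was the intron of *Nrg1*. Relative to the median site, PBRM1 was at 0.24, 0.20 and 0.04 and BRG1 at 0.87, 0.79 and 0.57 on the log2 scale. PBRM1 was lower by a log2 difference of −0.58 ± 0.13 (SE; limma, adjusted p = 0.0161), which is a 1.50-fold higher relative enrichment of BRG1. The call rested in part on single libraries, with an adjusted p of 0.102 without BRG1 replicate 1 and 0.0702 without BRG1 replicate 2, and the adjusted p ran from 0.0105 to 0.102 over the alternatives.

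The promoter of *Errfi1* went in the same direction, with a log2 difference of −0.45 ± 0.15 (SE), and did not pass (limma, adjusted p = 0.0852). It passed when the pileup scaled to the number of fragments replaced the fold enrichment (adjusted p = 0.00829). The promoter of *Hbegf*, where the unscaled values of the antibodies did not overlap, had a log2 difference of −0.24 with a 95% interval of −0.57 to 0.09 (adjusted p = 0.413). *Erbb3* was at 0.33 (−0.04 to 0.70, adjusted p = 0.292), *Nrg1* at 0.09 at the promoter (−0.27 to 0.45, adjusted p = 0.804) and *Egfr* at 0.09 (−0.28 to 0.45, adjusted p = 0.814). A p above the threshold does not show that the antibodies were alike at these promoters. The members without a peak in all 6 lists could not enter the test, since a list has no value where no peak was called.

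**Figure D4:**
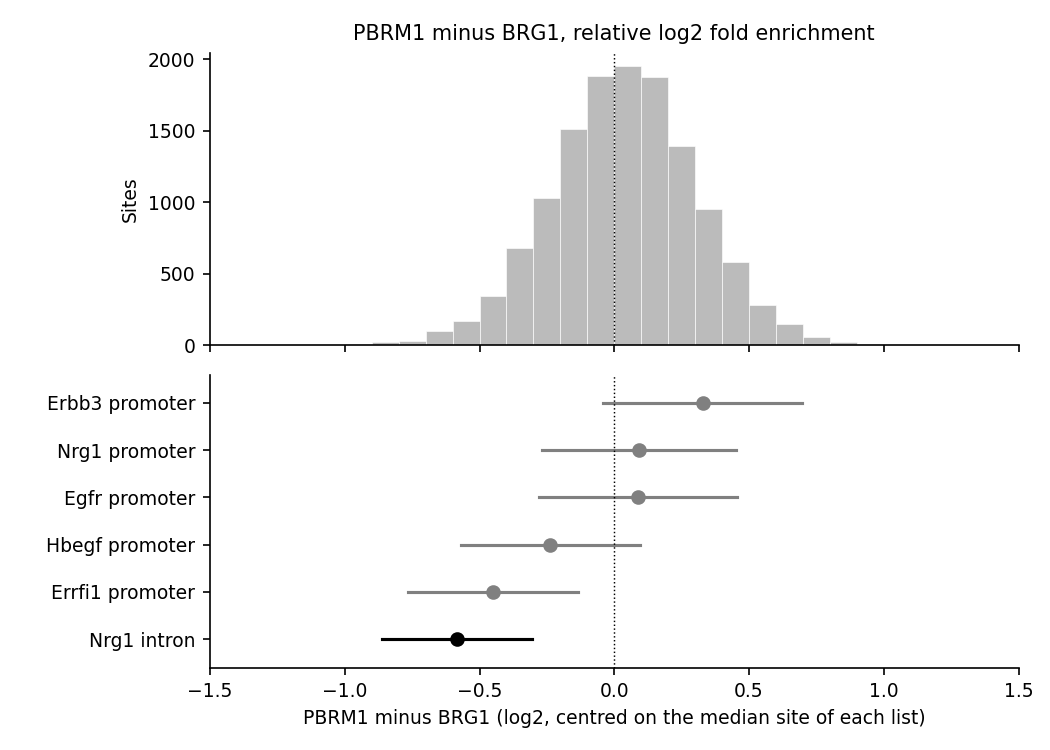
Difference of the centred log2 fold enrichment, PBRM1 minus BRG1 (x axis), for all 13071 sites with a peak in all 6 lists (top, number of sites per bin of 0.1) and for the 6 member sites (bottom, estimate and 95% interval from limma, black where the adjusted p passed 0.05). The *Nrg1* intron lies at −0.58, in the lower tail of the sites, and the *Egfr* and *Nrg1* promoters near 0.

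The surroundings of the members were searched within 100 kb of the most 5′ coding start for sites outside all promoter windows, a step added after the values were seen. No member had such a site in all 6 lists, where 22.2% of protein-coding genes had one, and 5 members had one in all 3 BRG1 lists, where 42.9% of genes had one. The strongest by BRG1 lay 9.88 kb upstream of *Hbegf*, at chr18:36525501-36525860. BRG1 was at 10.9, 12.5 and 11.6 there and PBRM1 at 7.65 and 4.14 in replicates 1 and 2, with no peak in replicate 3. The sites named here were picked by their BRG1 peaks and the values are unscaled, so the antibodies are not compared at them. *Errfi1* had sites 69.1 and 53.9 kb upstream, with mean BRG1 values of 3.47 ± 0.16 and 4.21 ± 0.60 (SD, n = 3). Each had a PBRM1 peak in 2 replicates, with means of 3.71 and 3.63. *Erbb3* had sites 23.2 kb upstream (BRG1 5.47 ± 1.33, no PBRM1 peak) and 53.2 kb downstream (BRG1 7.91 ± 1.05, PBRM1 3.46 in replicate 3). *Erbb2* had sites 69.8 kb upstream (BRG1 4.33 ± 0.75, PBRM1 5.69 in replicate 2) and 45.5 kb downstream (BRG1 5.85 ± 1.65, PBRM1 4.75 in replicate 1). The remaining one was the *Egfr* intron. Which gene a distal site belongs to cannot be told from peak positions.

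Of 18 other genes of the pathway, 13 had a promoter peak in all 6 lists (51.9% of all protein-coding genes) and 17 in all 3 BRG1 lists (61.4%), and *Epgn* had none in any replicate or pooled list. The difference from the 10 members was not tested. All 4 genes grouped as coupling the receptors to downstream signaling, *Grb2*, *Shc1*, *Sos1* and *Gab1*, had a promoter peak in all 6 lists. So did all 5 further negative regulators: the ubiquitin ligase genes *Cbl* and *Rnf41*, *Lrig1*, *Socs4* and *Socs5*. Mean fold enrichments of the negative regulators ran from 4.84 to 10.4 for PBRM1 and from 6.49 to 11.1 for BRG1. Of 4 genes for the release of ligands, the protease genes *Adam10* and *Adam17* and *Rhbdf2* had a peak in all 6 lists, and *Rhbdf1* in 1 PBRM1 and 3 BRG1 lists. Among 5 further ligand genes, *Btc* had one in all 6 lists (5.68 for PBRM1 and 7.50 for BRG1 on average), *Nrg2* and *Nrg4* in 2 PBRM1 and 3 BRG1 lists, *Nrg3* in the 3 BRG1 lists alone and *Epgn* in none.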

How the data were processed

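The members and lists were chosen with earlier results of these data known. The authors trimmed read pairs with cutadapt, aligned them to GRCm38 (mm10) with Bowtie2, removed duplicates and pairs with mapping quality under 20, and called peaks with MACS 2.2.7.1 (q-value of 0.05, regional background of 10000 bp, no control), per the file headers and the methods. Each deposited list gives a pileup signal, not scaled to depth, which was used scaled to the number of fragments in an alternative. Each deposited list gives a fold enrichment ratio over the local background, the main measure here. The deposited −log10 q-values were used to rank and filter peaks. Peaks of the pooled lists were merged into sites, and a replicate peak was assigned by an overlap of at least 1 bp. Promoters were windows of 2000 bp around all GENCODE M21 TSSs. By the rule for named sites, every pooled promoter site of a member is described, with the gene-body sites held by all 6 lists or by all 3 of an antibody. Motifs, CpG content and printed bases were read from the RefSeq GRCm38 assembly. Other thresholds, windows, scalings and left-out libraries were tried as alternatives, and the gene-body count without *Erbb4* and *Nrg1* and the distal sites within 100 kb were added after seeing the data. Sites with a peak in all 6 lists were tested with limma 3.58.1 (R 4.3.3) with a trend and Benjamini-Hochberg adjustment, and counts with an exact permutation test in Python 3.11.15. The overlap and limma steps were tested on simulated data. Replicate depth was 8868777 to 16505239 fragments, and sites near the limit of calling may be missed in a replicate. The sequence of the *Nrg1* intronic site is not reported here.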

Additional observations from a re-analysis of the deposited data

How the results depend on the processing

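The count of members with a promoter peak in all 6 lists was 5 under each threshold, window and TSS choice tried, and 5 to 7 when each library was left out in turn. The difference in members with a promoter peak per list, PBRM1 minus BRG1, ran from −2.5 to −1.0 over the left-out libraries, and that in gene-body peaks from −11.0 to −8.5. With the replicate numbers as a block, the differences were −1.67 and −9.33, with an exact sign-flip p of 0.25 for each, the smallest possible. That block gave 766 called sites in limma. Deviations of same-numbered libraries correlated at −0.042, −0.014 and −0.013, and those of differently numbered ones at −0.017 to 0.031. Whether the numbers pair libraries of the same animals or cultures cannot be told from these correlations. The count of 657 sites rose to 1221 with the pileup scaled to the number of fragments and ran from 171 to 698 over the left-out libraries, of which PBRM1 replicate 2 (297) and BRG1 replicates 1 (198), 2 (221) and 3 (171) moved it most. The log2 difference at the *Egfr* promoter ran from −0.018 to 0.26 over the left-out libraries and reversed without PBRM1 replicate 1 (−0.016) and without BRG1 replicate 1 (−0.018), and that at the *Nrg1* promoter ran from −0.057 to 0.18 and reversed without PBRM1 replicate 3. The *Nrg1* intron was at −0.52 without BRG1 replicate 1 and −0.56 without BRG1 replicate 2, where it was not called, and *Errfi1* moved to −0.62 with the pileup, where it was. The causes were not tested. A missing peak at these depths does not show that a protein is absent, fold enrichments of separate libraries share no common scale, and without a control, fragments that any antibody would recover cannot be told apart from those of PBRM1 or BRG1.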
